A study of Mus musculus with 19 samples.

Results

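The immunoglobulin variable (V) genes were followed across 19 mouse lymphomas, as the genes whose symbols start with Ighv (heavy chain), Igkv (kappa light chain) or Iglv (lambda light chain). A gene was selected by its measured value, a normalised read count of 10 or more in at least 1 of the 19 libraries. Of 145 V genes in a table of 21086 genes, 122 were selected, namely 55 of 67 Ighv, 64 of 75 Igkv and 3 of 3 Iglv genes. The members closest to this threshold were Igkv3-1 and Ighv1-4, whose highest values were 10.5 and 11.2, and the closest genes left out were Ighv15-2 and Ighv1-15, with highest values of 9.72 and 8.43. That a member reached the threshold somewhere is therefore how it was chosen and is no result.

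All mice carried the Eμ-Myc transgene (written Em-Myc in the labels), which places Myc under an enhancer of the immunoglobulin heavy chain and so expresses this oncogene in the B lineage. They were heterozygous for a deleted allele of the chromatin remodelling gene Bptf (Bptf+/Δ; HET) or were Bptf+/+ (WT), and the labels name no cell type to which the deletion was limited. The groups were HET late (n = 4, onset at 30, 44, 30 and 66 weeks), HET early (n = 4; 9, 13, 8 and 12 weeks), WT late (n = 5; 36, 76, 58, 38 and 28 weeks) and WT early (n = 6; 9, 17, 17, 13, 13 and 10 weeks). Each library was polyadenylated RNA of the bulk tissue of 1 lymphoma, and replicate numbers below only name tumours in that order.

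A B cell makes each antibody chain from 1 V gene, which the RAG1 and RAG2 recombinase joins to a J segment, with a D segment between them in the heavy chain. The joined exon is spliced to a constant region, Ighm or a switched class such as Igha for the heavy chain, and Igkc or an Iglc gene for the light chain. Descendants of 1 cell inherit the same joined V genes, so a clonal B cell population transcribes mainly 1 heavy and 1 light V gene, whereas a mixture of B cells uses many. The share of the leading V gene in each tumour is given here as such a description. It was taken over all measured V genes of the locus, members or not, and as a description it has no test.

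The genes that led single tumours are shown by their last 90 bases, the end of the V exon that is joined to D or J, read from GENCODE M21 transcripts (GRCm38), 5′ to 3′ along the gene. Capitals mark the last TAC or TAT codon followed directly by TGT or TGC, which encode tyrosine and the conserved cysteine at the start of the third hypervariable loop. On the gene's strand this 6-base pattern lies in the last 90 bases of 44 of 55 Ighv members, 52 of 64 Igkv members and none of the 3 Iglv members, 78.7% of all 122. Ighv6-6 (chr12:114434788-114435244, minus strand) and Igkv16-104 (chr6:68425575-68426072, plus strand) led the heavy and the kappa reads of HET late 4.
Ighv6-6: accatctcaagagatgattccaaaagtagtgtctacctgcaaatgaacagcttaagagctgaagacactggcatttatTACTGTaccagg
Igkv16-104: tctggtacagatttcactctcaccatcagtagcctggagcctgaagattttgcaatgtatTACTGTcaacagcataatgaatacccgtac
Ighv1-64 (chr12:115507545-115508031, minus strand) led 2 tumours, and Ighv12-3 (chr12:114366521-114366954, minus strand) and Ighv2-9-1 (chr12:113769850-113770302, minus strand) led 1 each.
Ighv1-64: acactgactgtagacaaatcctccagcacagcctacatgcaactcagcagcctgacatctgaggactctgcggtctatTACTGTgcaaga
Ighv12-3: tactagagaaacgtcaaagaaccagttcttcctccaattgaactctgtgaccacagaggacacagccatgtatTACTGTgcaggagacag
Ighv2-9-1: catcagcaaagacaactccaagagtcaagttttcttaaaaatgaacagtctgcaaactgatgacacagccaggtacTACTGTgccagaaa
Igkv14-111 (chr6:68256389-68256869, plus strand) led 2 tumours and Igkv15-103 (chr6:68437440-68437925, plus strand) led 1.
Igkv14-111: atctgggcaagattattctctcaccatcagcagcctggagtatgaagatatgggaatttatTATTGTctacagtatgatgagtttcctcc
Igkv15-103: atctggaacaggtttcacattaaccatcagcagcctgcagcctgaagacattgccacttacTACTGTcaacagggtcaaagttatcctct
Igkv3-9 (chr6:70588189-70588777, plus strand) and Igkv8-21 (chr6:70314895-70315472, minus strand) each led a tumour in which a relative came second, Igkv3-7 (chr6:70607437-70608036, plus strand) and Igkv8-19 (chr6:70340876-70341453, minus strand), so both pairs are shown.
Igkv3-9: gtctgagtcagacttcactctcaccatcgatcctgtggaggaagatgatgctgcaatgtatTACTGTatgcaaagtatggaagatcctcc
Igkv3-7: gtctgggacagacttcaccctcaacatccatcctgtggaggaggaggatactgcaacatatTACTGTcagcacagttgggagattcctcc
Igkv8-21: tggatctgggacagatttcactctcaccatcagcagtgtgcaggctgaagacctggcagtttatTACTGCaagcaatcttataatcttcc
Igkv8-19: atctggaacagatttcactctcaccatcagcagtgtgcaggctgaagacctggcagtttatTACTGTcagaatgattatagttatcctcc
Ighv6-6 and Ighv1-64 keep 6 bases after the cysteine codon, Ighv2-9-1 keeps 8 and Ighv12-3 keeps 11, against 20 to 24 bases in the kappa genes shown.

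V genes resemble each other, and this limits how far reads can be assigned to 1 of them. Over whole transcripts, Igkv3-9 and Igkv3-7 were 86.9% identical and Igkv8-21 and Igkv8-19 were 90.5% identical. Of the 55 Ighv members 47, and of the 64 Igkv members 51, had another annotated V gene of the locus that was at least 90% identical, with a median identity to the closest relative of 95.5% and 94.7%. GENCODE M21 annotates 183 Ighv and 160 Igkv genes, including pseudogenes, on chromosomes 12 and 6, whereas the table held 67 and 75 of them. The sources used here do not say how reads that match several V genes were counted, and each share below is uncertain by an unknown part that could belong to a relative. Among the leading genes, those with the most distant relatives were Igkv16-104 (closest relative 73.5% identical), Igkv19-93 (79.2%), Ighv12-3 (79.7%) and Igkv15-103 (81.4%).

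Depth was 8297856 to 12497732 reads per library, recovered exactly from the normalised values. The targeted gene Bptf ranged over 408–1573 normalised counts in HET late, 1277–1551 in HET early, 1681–2586 in WT late and 1665–2480 in WT early tumours, with no overlap between the genotypes. In 4 libraries the B lineage was not marked as in the rest: Pou2af1, a B cell coactivator of V promoters, was at 93.2, 216, 106 and 4.61 in HET late 1, HET late 2, HET early 2 and WT late 1, against 4847 to 9952 in the other 15. Cd79a, a signalling partner of the B cell receptor, was at 517, 3755, 38.5 and 103 in the 4, against 1352 or more in the others, whereas its partner Cd79b was low only in HET early 2 (54.5) and at 2737 or more elsewhere. The summed T cell markers (10 genes) were at 4536, 8037 and 8072 in HET late 1, HET late 2 and WT late 1, the 3 highest of 19, against 110 to 2732 in the other libraries. Most of these sums lay on Cd4 (2234, 2358 and 5375) and Cd8b1 (1614, 3847 and 2411), while Cd3e, a T cell receptor subunit, was at 37.5, 108 and 7.38, within the range of the other libraries (0 to 131). These 3 libraries had summed mature B markers of 26330, 27940 and 22420, but not all genes of that list were high. Cr2 and Fcer2a were at 2.88 or less, Ighd at 192, 151 and 169, and Ms4a1 at 1603, 2641 and 324. The rest of each sum lay on Cd22, H2-Aa and H2-Ab1. The part of these differences in the V gene results was not tested. In 3 libraries a gene other than Eef1a1 took most reads, namely Igha in HET late 4 (5.55% of all reads), the cartilage collagen Col2a1 in HET early 2 (4.36%) and the salivary gene Bpifa2 in WT early 6 (5.07%). Counts without these 3, and without the 4 libraries low in Pou2af1 (chosen after seeing the data), are given below.

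In the heavy chain, 1 V gene held most of the reads in some tumours and none did in others. At least 100 Ighv reads, the minimum for a ranking, were found in 13 of 19 tumours. In 5 of those 13 a single gene held 50% or more of all Ighv reads, here called dominated, and the median share of the leading gene was 46.8% (range 11.2% to 91.5%). Without the 3 libraries led by another gene, 4 of 11 ranked tumours were dominated and the median was 46.8%, and without the 4 libraries low in Pou2af1, none of which was ranked, both values stood as before. Because the tissue was bulk, fewer cells using a V gene and less V transcript per cell cannot be told apart.

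HET late tumours held the 2 highest heavy chain shares. Ighv6-6 took 91.5% of 104329 Ighv reads in HET late 4, with an exact (Clopper-Pearson) 95% interval of 91.3% to 91.6%, and Ighv1-64 took 88.3% of 1874 reads in HET late 3 (86.7% to 89.7%). The next genes in these tumours, Ighv1-26 and Ighv5-16, held 4.50% and 1.12%. All such intervals cover counting error only, since several reads may be copies of 1 amplified molecule.

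Among HET early tumours no ranked tumour reached 50%. Ighv6-3 took 49.6% of 1284 reads in HET early 4 (46.8% to 52.4%), an interval that spans the limit. Ighv5-6 led HET early 1 with 17.1% of 531 reads (14.0% to 20.6%) and Ighv2-5 led HET early 3 with 11.2% of 2100 reads (9.87% to 12.6%). HET early 3 therefore had the lowest leading share of the 13 tumours, although it held the third highest number of Ighv reads.

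In WT late tumours Ighv1-7 took 46.8% of 1260 reads in WT late 3 (44.0% to 49.6%). In WT late 2 Ighv2-2 led with 29.2% of 641 reads (25.7% to 32.9%) and Ighv1-7 came second with 19.7%. Ighv14-4 led WT late 4 with 14.8% of only 176 reads (9.88% to 20.9%). None of the 3 ranked WT late tumours reached the 50% limit.

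WT early tumours spanned both patterns. Ighv12-3 took 78.1% of 707 reads in WT early 2 (74.8% to 81.1%), Ighv1-64 took 64.6% of 164 reads in WT early 3 (56.8% to 71.9%), and Ighv2-9-1 took 55.6% of 160 reads in WT early 5 (47.6% to 63.5%). In contrast, Ighv1-22 led WT early 6 with 16.1% of 3257 reads (14.9% to 17.5%), followed by Ighv1-54 with 15.8%, and Ighv1-55 led WT early 4 with 15.4% of 1595 reads (13.7% to 17.3%). The 2 broad WT early tumours had more Ighv reads than the 3 dominated ones, unlike HET late 4, which was both dominated and highest in reads.

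**Figure D1:**
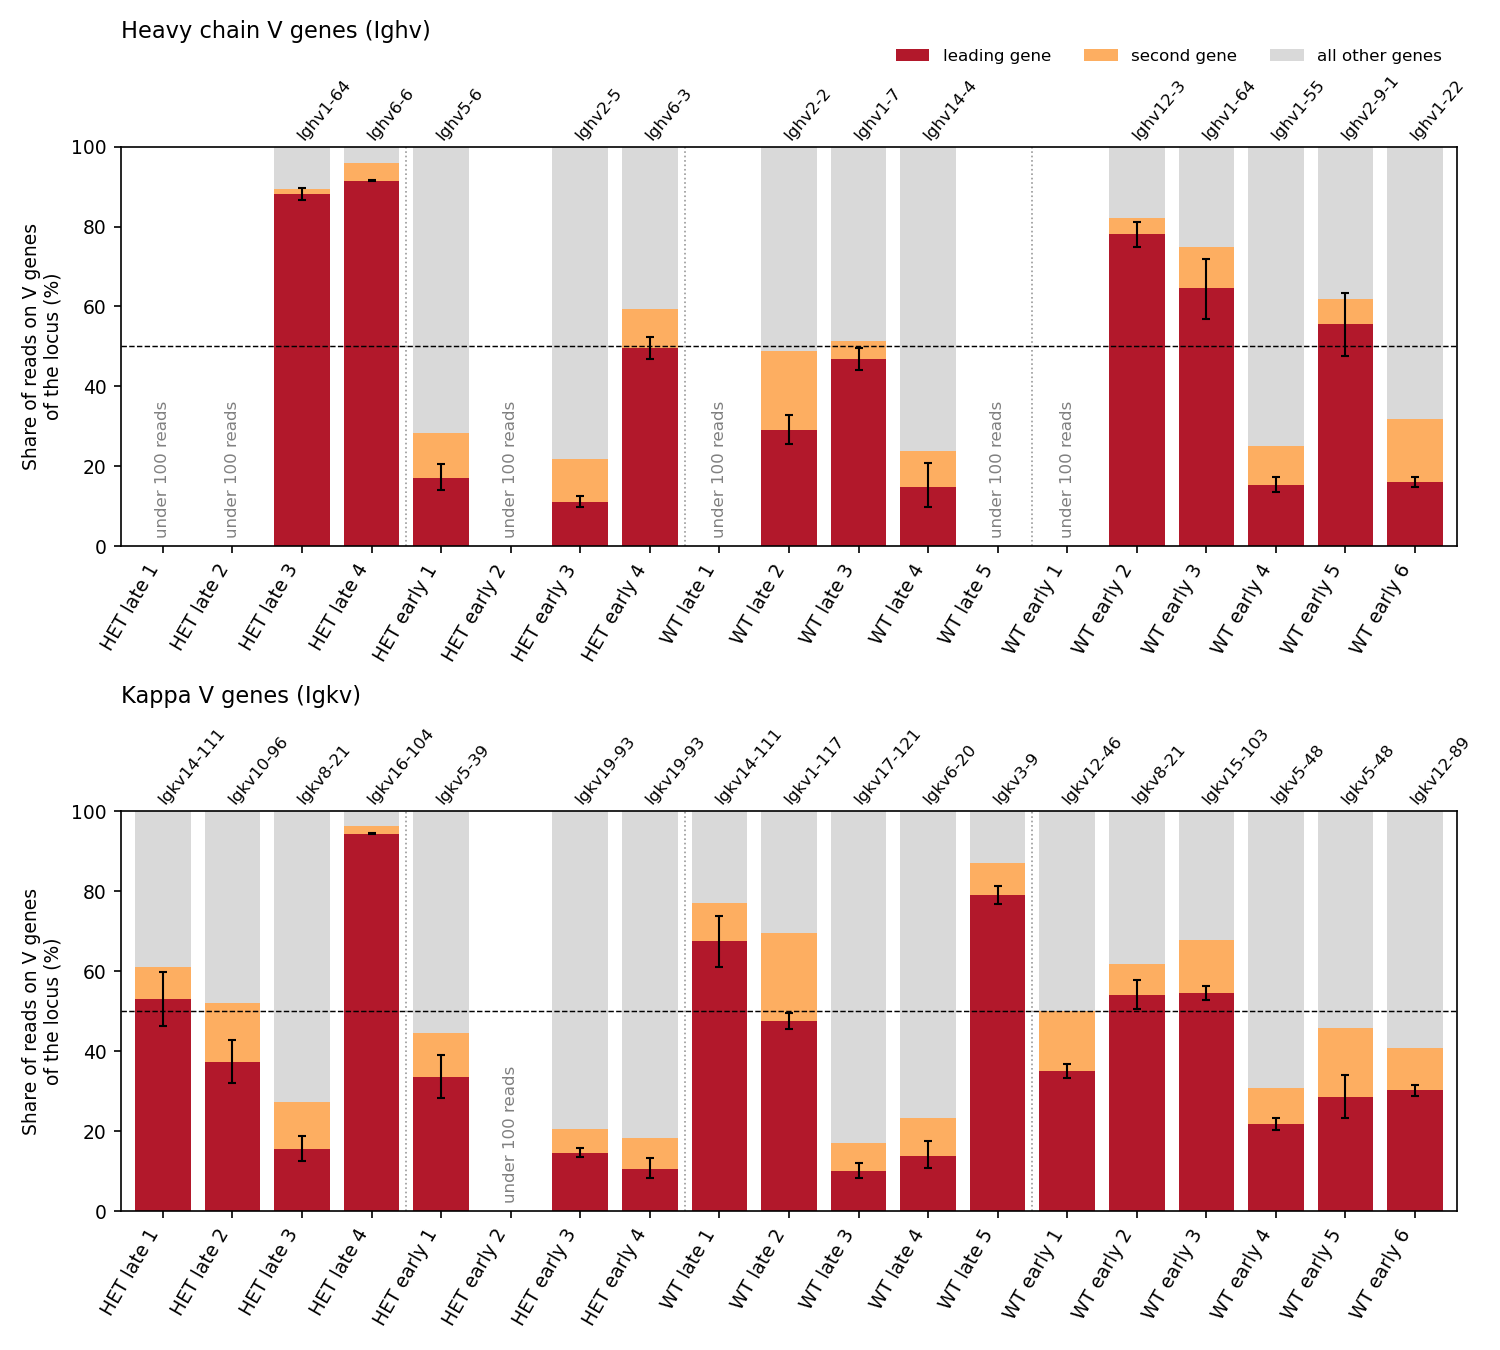
Share of the reads on V genes of a locus (%, vertical axis) held by the leading gene (named above each bar), the second gene and all other genes in each tumour, for Ighv (top) and Igkv (bottom), with error bars for the exact 95% interval of the leading share and a dashed line at 50%. HET late 4 reached 91.5% and 94.4%, whereas HET early 3 stayed at 11.2% and 14.6%.

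The 13 ranked tumours had 12 different leading Ighv genes. Only Ighv1-64 led more than 1, and its normalised count was 1301 in HET late 3 and 104 in WT early 3, while its highest value in the other tumours was 54.2 (WT early 6). The Ighv1 family, which has 27 of the 55 members, held a median of 45.6% of Ighv reads (7.89% to 93.9%). Where leading reads were pooled by family, 10 of 13 tumours passed 50%, against 5 by single gene. Leading genes lay from 166 kb (Ighv2-2) to 2085 kb (Ighv1-64) from Ighm, a span that covers most of the 156 to 2530 kb over which the members are spread.

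In the remaining 6 tumours the Ighv reads were too few to rank: 25 and 45 reads in HET late 1 and 2, 32 in HET early 2, 14 and 49 in WT late 1 and 5, and 39 in WT early 1. In WT early 1, 31 of the 39 reads lay on Ighv2-2 (79.5%, 63.5% to 90.7%). In HET late 2, 22 of 45 lay on Ighv1-77 (48.9%, 33.7% to 64.2%). These tumours were not short of heavy chain constant region transcripts, apart from HET early 2: Ighm was at 19290 and 27721 in HET late 1 and 2, 16809 and 16024 in WT late 1 and 5, and 24972 in WT early 1, but only 580 in HET early 2.

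Kappa V genes could be ranked in 18 tumours, all but HET early 2 with 59 reads. A single gene held 50% or more of the Igkv reads in 6 of the 18, and the median leading share was 34.4% (10.1% to 94.4%). Without the 3 libraries led by another gene, 5 of 16 were dominated and the median was 34.4%, and without the 4 libraries low in Pou2af1, 4 of 15 were dominated and the median was 30.2%.

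Both onset classes of WT mice and the late class of HET mice held kappa-dominated tumours. Igkv16-104 took 94.4% of 194804 Igkv reads in HET late 4 (94.3% to 94.5%), and Igkv14-111 took 53.1% of 226 in HET late 1 (46.4% to 59.8%). In WT late 5 Igkv3-9 took 79.2% of 1314 reads (76.9% to 81.4%), and in WT late 1 Igkv14-111 took 67.7% of 223 reads (61.2% to 73.8%). In WT early 3 Igkv15-103 took 54.6% of 3367 reads (52.9% to 56.2%), and in WT early 2 Igkv8-21 took 54.2% of 712 reads (50.5% to 57.9%). The 3 ranked HET early tumours stayed between 10.6% and 33.7%.

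Other tumours were led less clearly. Igkv10-96 held 37.4% and Igkv8-21 15.6% in HET late 2 and 3. Igkv5-39 held 33.7% in HET early 1, and Igkv19-93 held 14.6% and 10.6% in HET early 3 and 4. In WT late 2 Igkv1-117 held 47.5% of 2456 reads and Igkv12-89 held 22.2%, so 2 genes together made up most of them. Igkv17-121 led WT late 3 with 10.1%, the lowest kappa share of all, and Igkv6-20 led WT late 4 with 13.9%. Among WT early tumours Igkv12-46 led WT early 1 (35.2%), Igkv5-48 led WT early 4 (21.8%) and WT early 5 (28.5%), and Igkv12-89 led WT early 6 (30.2%).

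Only single tumours carried some of these genes at a high level. Igkv3-9 was at 1225 normalised counts in WT late 5 and at most 9.64 elsewhere. Its relative Igkv3-7, second in that tumour with 7.84% of the reads, was at 121 there and at most 23.2 elsewhere. Igkv15-103 was at 1805 in WT early 3, with 104 in WT early 6 as the next highest value. Igkv14-111, in contrast, was detected in all 19 libraries, from 0.787 in HET late 3 to 5492 in HET late 4, and it led HET late 1 and WT late 1 at only 105 and 139. The 18 ranked tumours had 14 different leading Igkv genes.

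HET late 1 and WT late 1, which shared Igkv14-111, also shared the highest levels of Igkv2-107, at 9.58 and 14.8 normalised counts, against 2.35 or less in the other 17 libraries. Igkv2-107 was the single pseudogene among the members. Its annotated neighbour Igkv2-109 was at 10.5 and 19.4 in them, but it was higher still, at 63.9, in WT late 3.

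**Figure D2:**
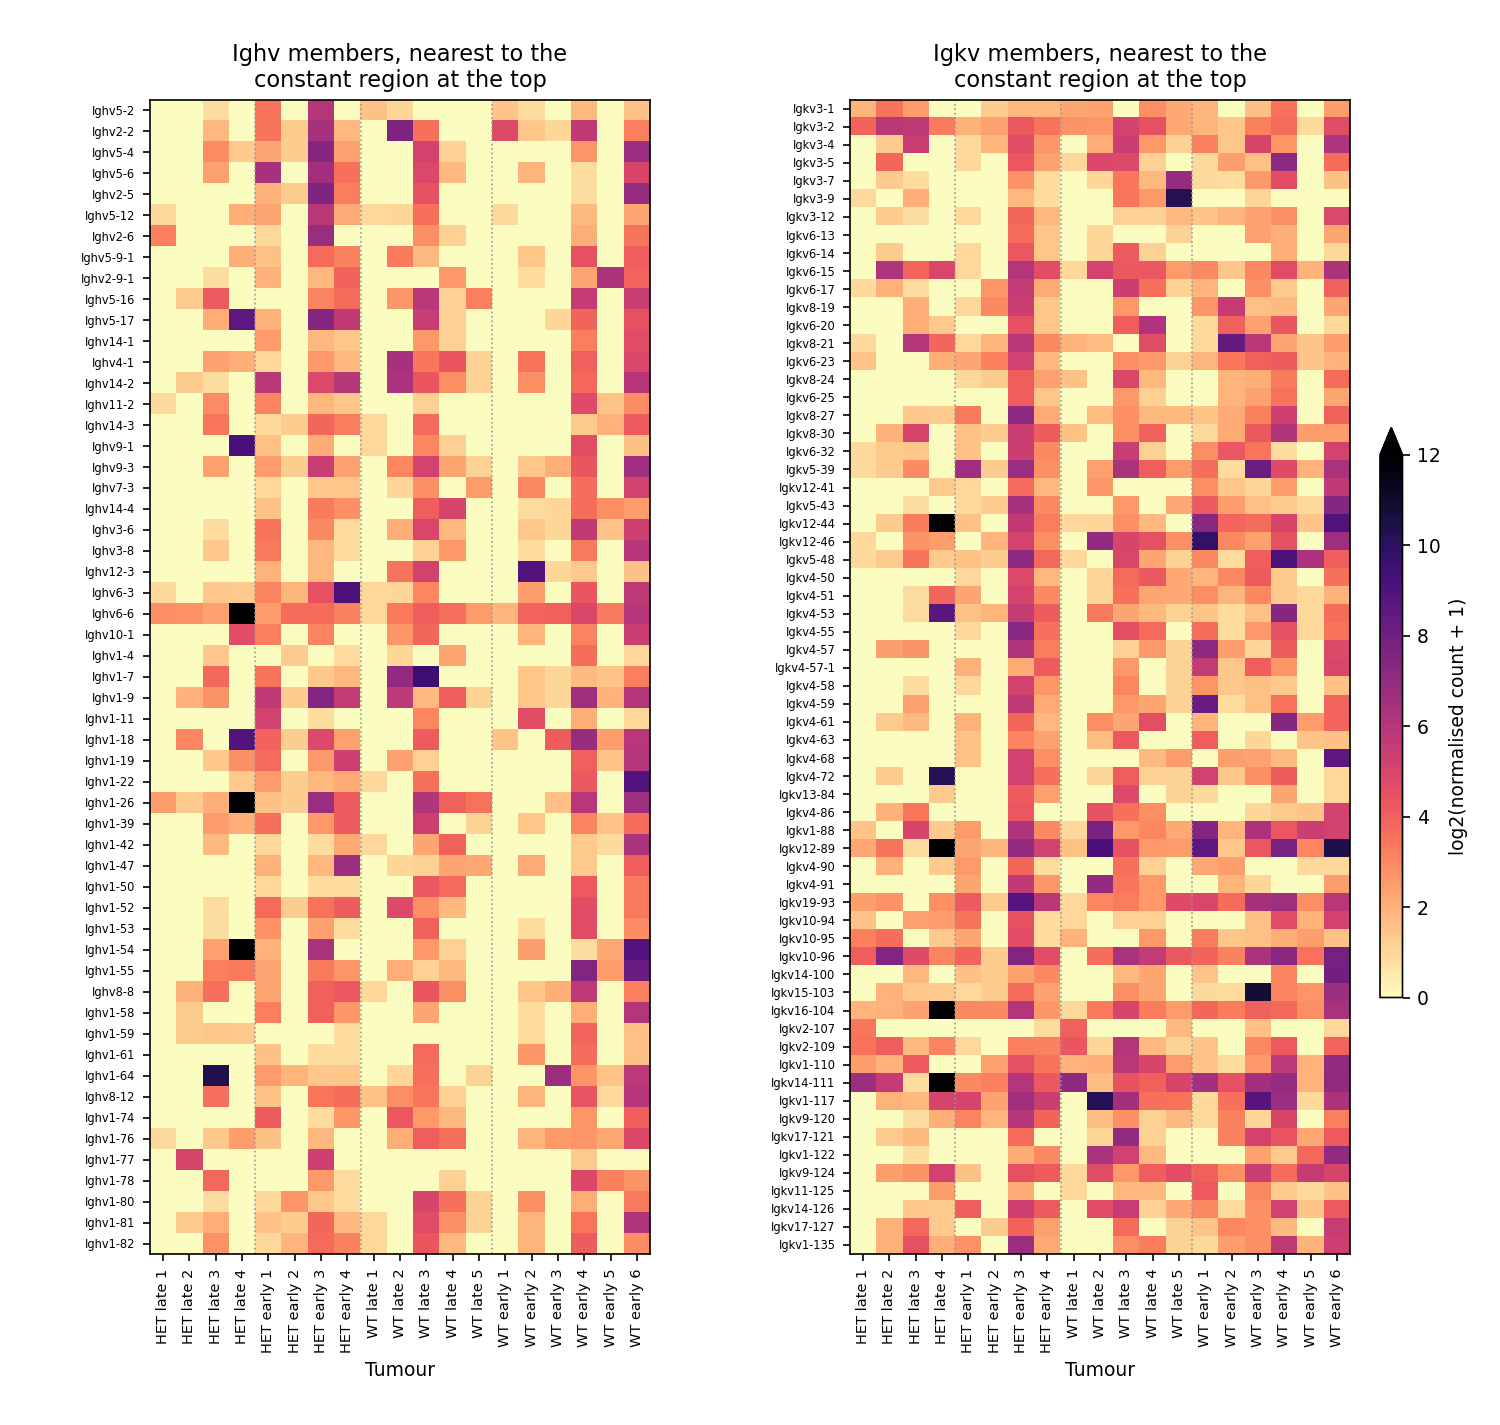
Normalised count of each Ighv (left) and Igkv (right) member in each tumour, coloured as log2(normalised count + 1) with values above 12 in the darkest colour, rows ordered by distance from the constant region. Most rows are dark in 1 or a few tumours, and HET early 3, WT early 4 and WT early 6 are filled over most rows.

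Most members were scarce in most tumours. The median over the 19 libraries was 0 for 24 of 55 Ighv members and for 9 of 64 Igkv members, and it reached 10 in no Ighv member and in 6 Igkv members, although 18 Ighv and 31 Igkv members reached 100 in some tumour. The members were highest most often in tumours with broad use: for Ighv, 14 in WT early 6 and 8 each in WT early 4 and HET early 3, and for Igkv, 15 in HET early 3 and 13 in WT early 6. Ighv6-6 was the only Ighv gene with a read in every library, followed by Ighv1-9 in 15 and Ighv1-26 in 14. Among Igkv genes Igkv14-111, Igkv12-89, Igkv3-2 and Igkv16-104 had a read in every library.

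Of the 13 tumours ranked at both loci, 3 were dominated at both (HET late 4, WT early 2 and WT early 3), 2 at the heavy chain only (HET late 3 and WT early 5), none at kappa only and 8 at neither. In HET late 3 the 2 loci differed widely, with 88.3% on Ighv1-64 and only 15.6% on Igkv8-21. The effective number of genes, the inverse of the summed squared shares, gives the same contrast: it was 1.28 for Ighv and 13.8 for Igkv in HET late 3, 1.19 and 1.12 in HET late 4, and 15.7 and 23.1 in HET early 3.

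HET late 4 stood apart from all other tumours in how much V transcript it held. Its summed normalised count was 157077 for Ighv and 293296 for Igkv, against at most 2991 and 4630 in the other 18 libraries, both in WT early 6. Ighv6-6 alone was at 143661 and Igkv16-104 at 276841, and all V genes together made up 1.16% (Ighv) and 2.17% (Igkv) of its reads. Its heavy chains were switched: Igha was at 752208, Ighg2c at 734797 and Ighg2b at 316767, whereas Ighm was at 220. Jchain, which links IgA and IgM into polymers, was at 57297. The 8 plasma cell markers summed to 830200, against 2193 to 56240 in the other libraries. Igha and Jchain are among these markers and made up most of the sum in HET late 4. Of the rest, Mzb1, Xbp1, Derl3, Prdm1 and Tnfrsf17 were at 9419, 5658, 2829, 596 and 265, their highest values in any library. Sdc1 was at 1935, below its 3959 in HET early 2.

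The low counts of the same 2 genes elsewhere are given beside this. In the other 18 libraries Ighv6-6 had 1 to 70 reads (median 9) and Igkv16-104 had 1 to 89 reads (median 7), with the highest counts of both in WT early 6. A median of 9 reads is 0.00943% of the Ighv6-6 reads of HET late 4. The ratio of Igkv16-104 to Ighv6-6 reads was 1.93 in HET late 4 and ranged from 0.429 (HET late 1) to 5.33 (HET early 3) in the others. Whether some of these reads came from HET late 4 was not tested. With both genes set to 0 outside HET late 4, the number of dominated tumours was again 5 for Ighv and 6 for Igkv.

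**Figure D3:**
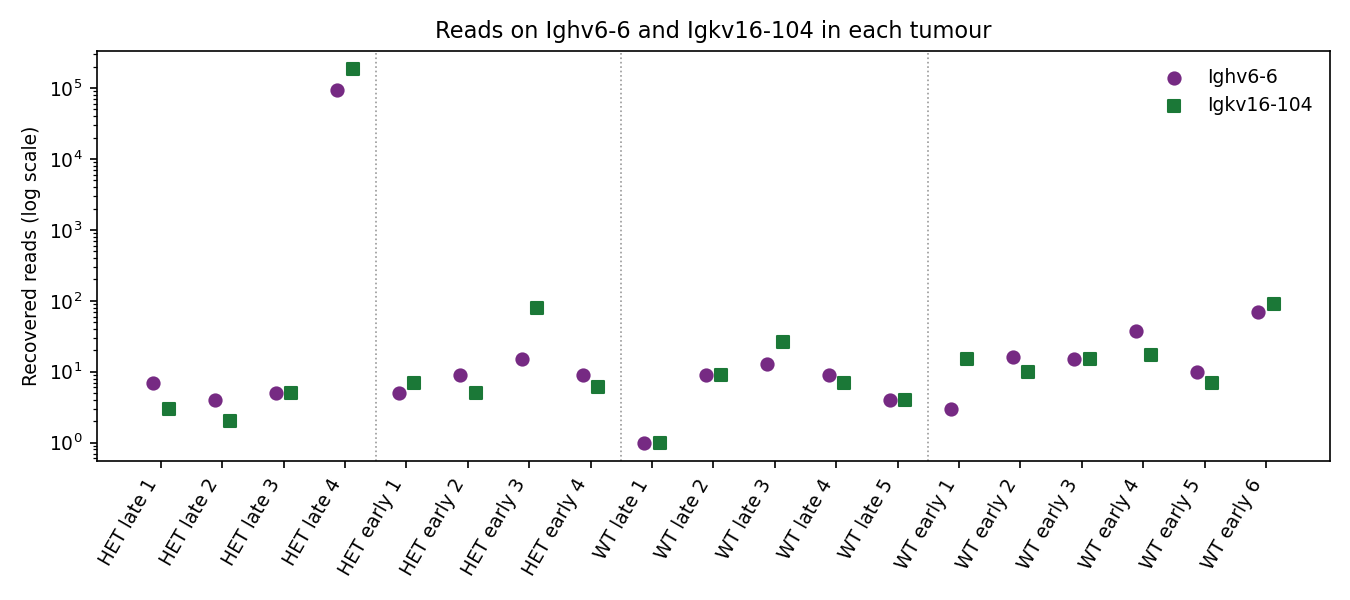
Recovered reads (log scale) on Ighv6-6 (circles) and Igkv16-104 (squares) in each of the 19 tumours. Both genes have 1 to 89 reads in 18 tumours and 95418 and 183875 reads in HET late 4.

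V reads were also set against constant region reads of the same locus, which every antibody transcript of that locus shares. Per 100 heavy chain constant reads there were 0.109, 0.220, 4.90 and 8.71 Ighv reads in HET late 1 to 4, against 2.30, 5.18, 5.88 and 5.91 in HET early 1 to 4. The WT late tumours 1 to 5 had 0.0738, 1.30, 7.03, 0.776 and 0.346, against a lowest value of 0.132, a median of 2.80 and a highest value of 7.77 in WT early tumours. In both genotypes the late and early ranges overlapped, and the 4 lowest late tumours and WT early 1 lay under 0.35.

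For kappa, the late and the early tumours differed more. Per 100 Igkc reads there were 4.98, 4.83, 8.49 and 42.5 Igkv reads in HET late 1 to 4, against 51.5, 39.1, 34.2 and 25.8 in HET early 1 to 4. In WT late 1 to 5 there were 9.13, 6.21, 34.5, 10.8 and 35.2, against 23.2 to 72.7 in WT early tumours (median 26.4). Thus 6 of the 9 late tumours lay below all 10 early ones and the other 3 lay within the early range. Without the 4 libraries low in Pou2af1, 3 of 6 late tumours lay below all 9 early ones. For lambda, the values per 100 Iglc reads were 0.701 to 11.5 in HET late, 21.4 to 48.5 in HET early, 1.90 to 27.1 in WT late and 15.4 to 57.4 in WT early tumours. Late and early values did not overlap in HET mice, but some rest on very few reads. The lowest HET early value was 3 Iglv over 14 Iglc reads (HET early 2), and HET late 3 had 13 over 125. The lowest WT early value was 2 over 13 (WT early 5). The V and constant regions differ in length and in how many genes share reads, so the ratio compares tumours and gives no number of transcripts. It was taken over all measured V genes of the locus and, as a description, has no test.

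The recombinase gene Rag1 is set beside the kappa ratios, and low values of both did not always go together. The 6 late tumours with low kappa ratios had Rag1 at 0.871, 4.32 and 3.15 (HET late 1 to 3), 11.1 and 5.10 (WT late 1 and 2) and 36.2 (WT late 4). Among the other late tumours Rag1 was at 5367 in WT late 3 and 628 in WT late 5, but at 1.51 in HET late 4, which had a ratio of 42.5. Every WT early tumour had Rag1 at 145 or more, as had the HET early tumours except HET early 2 (2.66). In HET early 2 the B cell markers were low and the kappa ratio was 39.1. WT early 2 and WT early 4 had Rag1 at 4021 and 145 but similar kappa ratios, 23.3 and 24.0. Summed pro-B and pre-B markers (8 genes, Rag1 among them) came to 261–1931 in HET late, 2460–13050 in HET early, 293–11450 in WT late and 1298–16670 in WT early tumours. The summed mature B markers (7 genes, H2-Aa and H2-Ab1 among them) came to 4205–43220, 6787–11810, 8453–45320 and 2611–14710 in HET late, HET early, WT late and WT early tumours. The part of B cell stage in the V levels was not tested.

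**Figure D4:**
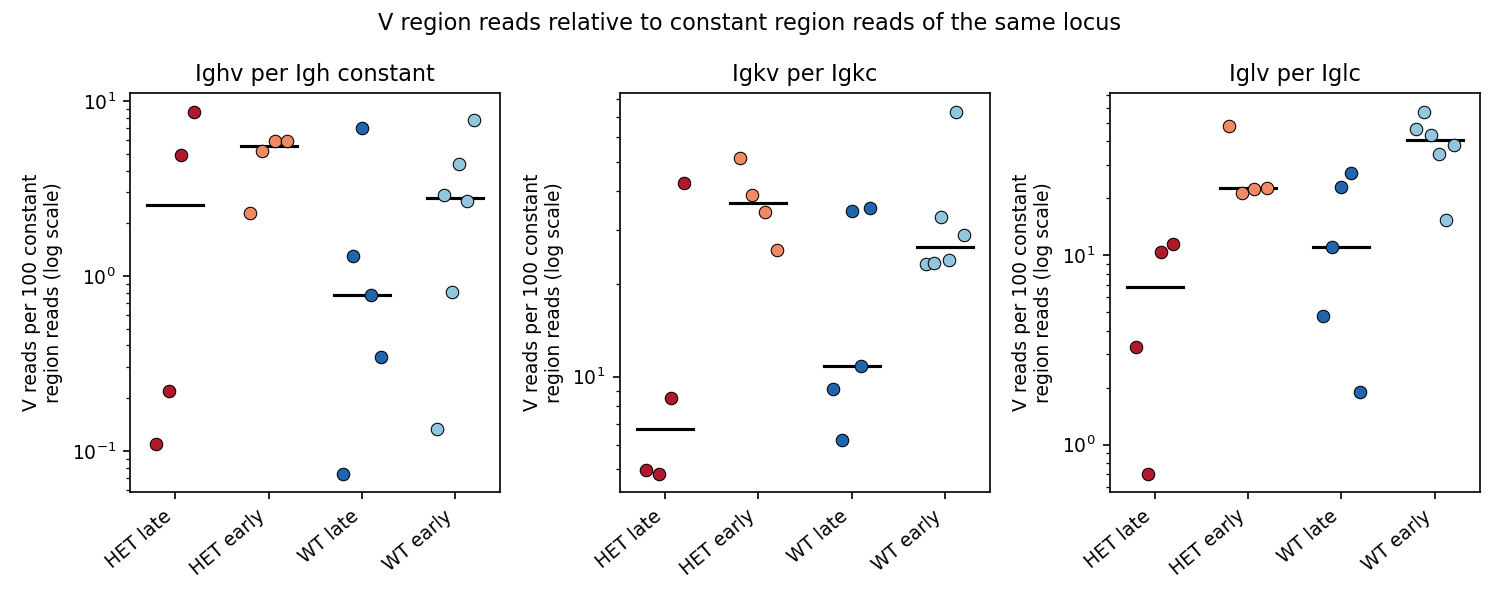
V gene reads per 100 constant region reads of the same locus (log scale) in each tumour by group, for Ighv, Igkv and Iglv, with group medians as lines. For Igkv, 6 of 9 late tumours lie at 4.83 to 10.8 and all 10 early tumours at 23.2 to 72.7.

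Lambda V genes were few, as mice have only Iglv1, Iglv2 and Iglv3 on chromosome 16. Iglv1 and Iglv2 were 96.7% identical, so their reads may be exchanged, whereas Iglv1 and Iglv3 were 57.2% identical. Iglv1 was at 25.3, 8.64, 7.08 and 917 in HET late, 41.9, 3.99, 384 and 242 in HET early, 13.8, 189, 18.1, 4.83 and 14.1 in WT late, and from 0.890 to 391 (median 176) in WT early tumours. Iglv3 was at 97.6, 47.5, 2.36 and 197 in HET late, 2.79, 0, 86.5 and 22.7 in HET early, 93.1, 88.7, 1.20, 9.67 and 24.7 in WT late, and from 0.890 to 110 (median 39.4) in WT early tumours. The groups overlapped for both genes.

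Of the 10 tumours with at least 100 Iglv reads, 8 were led by Iglv1 and 2 by Iglv3. Iglv3 held 78.9% of 142 Iglv reads in HET late 1 (71.2% to 85.3%) and 87.1% of 116 in WT late 1 (79.6% to 92.6%), and it also led HET late 2 with 33 of 39 reads. In the 8 led by Iglv1, that gene held between 67.8% (WT late 2) and 86.0% (HET early 4). With 3 genes in the locus, a share above 50% carries less about clonality than in the larger loci.

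The same tumours had the highest lambda share of light chain constant region reads, which did not choose the members. Lambda made up 48.9% of light chain constant reads in HET late 1 (47.8% to 49.9%), 44.2% in HET late 2 (43.3% to 45.0%) and 49.99% in WT late 1 (48.6% to 51.4%). HET early 4 followed with 37.1%, WT late 5 with 31.7% and HET early 3 with 18.9%, and the remaining 13 tumours had 1.23% to 14.3%. In HET late 4, with its high kappa level, lambda made up 1.40%. The V reads did not follow this share. Per 100 Iglc reads, HET late 1, HET late 2 and WT late 1 had 3.27, 0.701 and 4.75 Iglv reads, against 15.4 to 57.4 in early tumours. HET late 2 had 39 Iglv and 340 Igkv reads, whereas HET early 4 had 335 and 641. The 3 tumours with the highest lambda share of constant reads were those with the highest summed T cell markers and with Pou2af1 at 216 or less, as given above.

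Reads on the J segments, which did not choose the members, are given beside the heavy chain V reads. In HET late 4, 165 of 171 Ighj reads lay on Ighj4 (96.5%, 92.5% to 98.7%), and in HET late 3, 22 of 26 lay on Ighj2 (84.6%, 65.1% to 95.6%). In WT early 3 all 14 Ighj reads lay on Ighj4 (76.8% to 100%). Ighj4 was also the leading segment in most broad tumours, with 58.2% of 55 reads in HET early 3 and 55.1% of 49 in WT early 6, and it reached 91.7% of 24 reads (73.0% to 99.0%) in WT late 4, where the leading Ighv gene held only 14.8%. In WT early 2, whose Ighv12-3 share was 78.1%, Ighj4 held 57.0% of 86 reads, and in WT early 5, whose Ighv2-9-1 share was 55.6%, it held 11 of 22 reads (28.2% to 71.8%). A high share of 1 V gene and of 1 J segment thus did not always go together. However, Ighj reads per 100 Ighv reads ranged from 0.164 in HET late 4 to 3143 in WT late 1. Reads so far out of step cannot show which J segment was joined to the leading V gene, and nothing on clonality is drawn from them.

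The 2 tumours with the fewest Ighv reads had the most Ighj reads. HET late 1 had 621 Ighj and 25 Ighv reads and WT late 1 had 440 and 14, whereas the other libraries had at most 171 Ighj reads, with 86 in HET late 2, where 45 Ighv reads were found. In these 3 tumours Ighj1, the segment nearest to the D genes, led with 46.7% in HET late 1, 81.4% in HET late 2 and 55.5% in WT late 1, and no other ranked or unranked tumour with more than 2 Ighj reads was led by it. Kappa J segments showed no such concentration in HET late 4, where Igkj5 led with 31.4% of 156 reads. There were only 0.0801 Igkj reads per 100 Igkv reads in that tumour. The Igkj shares therefore cannot be set against the 94.4% of V reads that Igkv16-104 held.

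The comparison of late with early tumours, averaged over genotype, asked whether members changed with onset. No member passed the limma test at an adjusted p of 0.05 (121 of the 122 were tested, and Ighv1-77 failed the filter on low values), where 0.437% of all 19927 genes passed. At an unadjusted limma p under 0.05 there were 18 members (14.9%), 17 of them lower in late tumours, against 18.99% of all genes (3785, of which 2032 were lower). In this fit the share of members lay below that of all genes, but other fits put it above. It was 34.7% against 23.2% of all genes by edgeR and 24.0% against 21.8% by DESeq2. By limma without the 3 libraries led by another gene it was 26.05% against 19.06%. The log2 difference on log2(value + 1) was negative for 104 of 121 members, with a median of -0.90, against a median of -0.08 over all genes tested. The median of the members stayed negative under every alternative run, from -1.65 with a pseudocount of 0.1 to -0.61 without HET early 3. Without the 4 libraries low in Pou2af1 it was -0.88, with 0 members called by limma and 11 (9.17%) at an unadjusted p under 0.05, against 16.6% of all genes. DESeq2 called 12 of 121 members, all kappa genes and all lower in late tumours. This share was close to the 9.31% of all genes that it called (1855, of which 720 were lower). By edgeR 2 members were called, also lower, where it called 2.7% of all genes (539, of which 185 were lower). By limma the members therefore showed no call, and the low side of their distribution is a description only.

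The 3 members of smallest p were kappa genes. Igkv19-93 was at 4.36, 5.76, 0 and 6.02 in HET late, 16.8, 1.33, 457 and 57.2 in HET early, 0.922, 7.13, 8.43, 4.83 and 25.9 in WT late, and from 6.23 to 102 (median 43.7) in WT early tumours. The late and early ranges overlapped in both genotypes. Its log2 difference was -2.60 ± 0.83 (SE), with a limma adjusted p of 0.116, an edgeR adjusted p of 0.0452 and a DESeq2 adjusted p of 0.00036. Without HET early 2, the library rich in cartilage transcripts, the limma adjusted p was 0.0446.

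Igkv6-23 was at 1.74, 0, 0 and 3.01 in HET late, 3.72, 7.98, 35.9 and 2.53 in HET early, 0, 0, 6.02, 4.83 and 1.18 in WT late, and from 1.78 to 16.4 (median 6.07) in WT early tumours. All values but 1 were under 20, and the classes overlapped. The difference was -1.87 ± 0.57 (limma adjusted p = 0.106; DESeq2 adjusted p = 0.0225). Igkv4-57-1 was at 0 in all 4 HET late tumours and in 3 of 5 WT late tumours, with 4.82 in WT late 3 and 1.18 in WT late 5, and it was at 2.79, 0, 3.27 and 16.8 in HET early and 0 to 47.0 (median 10.5) in WT early tumours. Its difference was -2.21 ± 0.68 (limma adjusted p = 0.108; DESeq2 adjusted p = 0.00902).

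**Figure D5:**
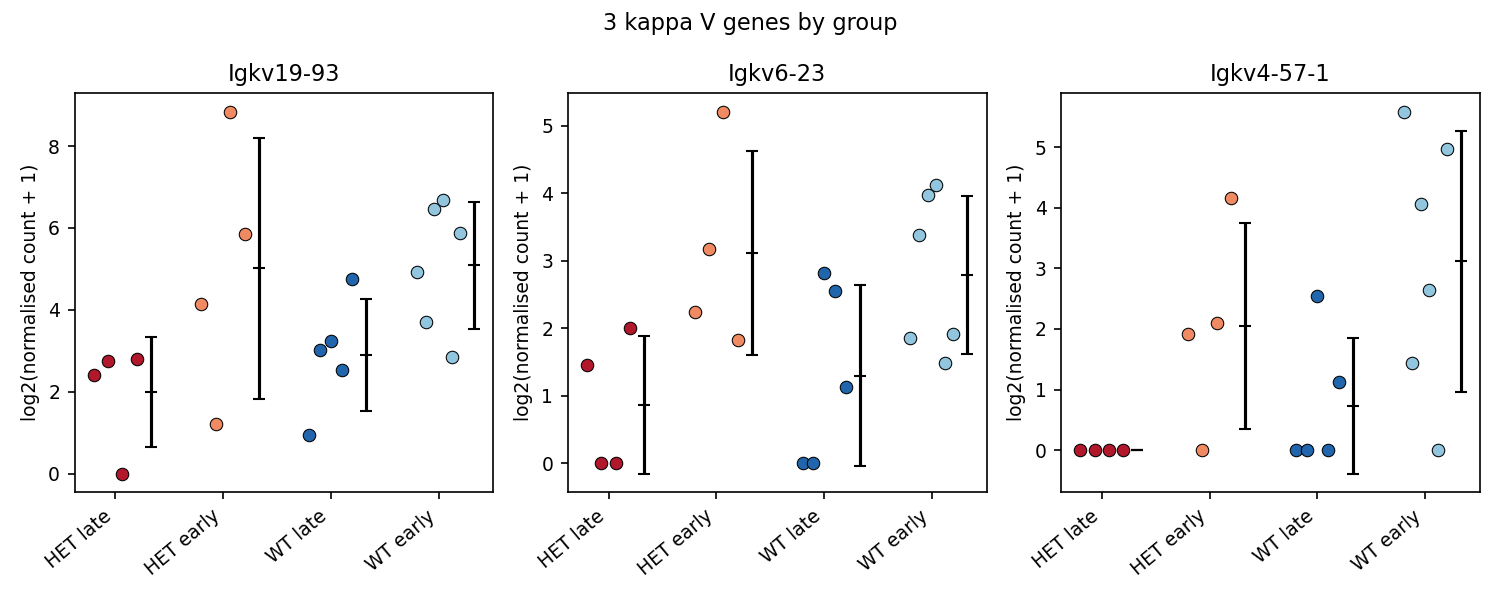
Values of Igkv19-93, Igkv6-23 and Igkv4-57-1 as log2(normalised count + 1) in each tumour by group, with the group mean and SD beside the points. Late tumours lie lower on average in both genotypes, and the ranges of late and early tumours overlap for each gene.

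Between genotypes, averaged over onset, limma called none of the 121 members and none of all genes tested (0%), with 0 members at an unadjusted p under 0.05, against 9.98% of all genes. DESeq2 and edgeR called 0 members as well. However, DESeq2 gave no adjusted p here for some members, among them the leading genes Ighv6-6, Ighv1-64, Ighv12-3, Igkv16-104 and Igkv14-111, which it therefore could not call. In every comparison such members were counted as not called. At an unadjusted p under 0.05, edgeR had 22.3% of members against 12.5% of all genes, and DESeq2 had 13.2% against 12.2%. The median log2 difference of the members was -0.22 and turned to 0.19 without the 3 libraries led by another gene, to 0.03 without HET early 2 and to 0.03 without the 4 libraries low in Pou2af1, so no direction held. The smallest limma p-values belonged to Iglv2 (1.16 ± 0.59), Igkv4-50 (-1.32 ± 0.69) and Igkv3-7 (-1.47 ± 0.77), with limma adjusted p-values of 0.499, 0.499 and 0.5. The difference of Igkv3-7 was -0.93 without WT late 5, where its value was highest, and that of Iglv2 was 1.90 without the 4 libraries low in Pou2af1. Igkv4-50 was at 0 in all 4 HET late tumours and at 0.931, 0, 27.8 and 2.53 in HET early tumours, against 0, 1.02, 12.0, 18.1 and 3.53 in WT late and 0 to 16.7 (median 4.72) in WT early tumours.

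Whether the onset difference depended on genotype was tested by the interaction, late minus early in HET mice less the same in WT mice. Again limma called none of the 121 members and 0% of all genes, with 4 members (3.31%) at an unadjusted p under 0.05, against 6.94% of all genes, while edgeR and DESeq2 called 0 members. At an unadjusted p under 0.05, edgeR had 27.3% of members against 10.6% of all genes, and DESeq2 had 14.05% against 9.62%. By limma without the 3 libraries led by another gene these shares were 15.13% and 5.505%. The median of the members was -0.60, but it was close to 0 without HET early 3 (-0.05) or WT late 3 (-0.10), and it was -1.59 without the 3 libraries led by another gene, -1.03 without HET early 2 alone and -0.996 without the 4 libraries low in Pou2af1. Igkv4-91 was at 0 in all 4 HET late tumours, at 3.72, 0, 51.4 and 5.05 in HET early tumours, at 0, 123, 9.64, 4.83 and 0 in WT late tumours, and at 0 to 4.59 (median 0.491) in WT early tumours. Its interaction was -4.34 ± 1.64 (limma adjusted p = 0.706), and those of Ighv1-52 and Ighv14-2 were -3.50 ± 1.47 and -4.44 ± 1.98 (limma adjusted p = 0.714 for each).

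The authors' deposited table holds 5 comparisons of its own, and its adjusted p was under 0.05 for a member in 2 of them. Between late and early WT tumours the authors' deposited table gave Igkv12-44 a log2 fold change of -5.86 (adjusted p = 0.000842), as 1 of 52 members with a p-value, where 1.94% of all genes with one were called. The normalised counts of Igkv12-44 were 0.922, 1.02, 6.02, 2.42 and 0 in WT late tumours, against 1.78 to 497 (median 22.9) in WT early tumours. Between late and early HET tumours the authors' deposited table gave Ighv14-2 a log2 fold change of -6.20 (adjusted p = 0.0175), as 1 of 28, where 4.32% of all genes were called. Ighv14-2 was at 0, 1.44, 0.787 and 0 in HET late tumours, against 55.9, 0, 26.9 and 63.1 in HET early tumours. The authors' deposited table called 0 members between HET and WT in all tumours (0.338% of all genes), in early tumours (2.09%) and in late tumours (0.109%).

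Genes that act with the V genes were counted by list, by limma, for late against early tumours. None of 14 V(D)J recombination genes was called (median log2 difference -0.13), although Rag1 and Rag2 had -5.32 ± 1.36 and -4.65 ± 1.22 (limma adjusted p = 0.0687 and 0.0745). None of 19 factors of V promoters and immunoglobulin enhancers (median -0.14), none of 8 hypermutation and class switching genes (0.15), none of 6 receptor partners (-1.14) and none of 13 constant region genes (1.44) was called. Of 8 pro-B and pre-B markers 1 fell in late tumours, Cd93, a receptor of early B cells (-2.54 ± 0.54, limma adjusted p = 0.0467; list median -2.76). The call on Cd93 was held without HET late 1, HET late 3, HET early 2, WT late 3 or WT late 5 and was lost without any 1 of the other 14 tumours, with limma adjusted p-values from 0.0128 to 0.115 over the 19. None of 7 mature B (0.51), 8 plasma cell (1.51), 10 T cell (0.85), 6 macrophage (0.67), 4 cartilage (-2.52) and 3 salivary gland (-1.56) markers was called. At an unadjusted p under 0.05 there were 3 V(D)J recombination genes, 5 promoter and enhancer factors, 1 hypermutation gene, 2 receptor partners, 3 constant region genes, 6 pro-B and pre-B, 2 mature B, 4 plasma cell, 2 T cell and 2 macrophage markers, and 0 cartilage and salivary gland markers, where 18.99% of all genes reached this limit. DESeq2 called 4 V(D)J recombination genes, 3 promoter and enhancer factors, 5 pro-B and pre-B, 2 mature B, 2 plasma cell, 2 T cell and 1 macrophage markers, and 0 genes of the other lists, where it called 9.31% of all genes. Some genes stand in more than 1 list, such as Rag1, Rag2 and Dntt. For genotype and for the interaction no gene of any list was called by limma, while DESeq2 called 1 V(D)J recombination gene and 1 pro-B and pre-B marker for genotype and 2 of each for the interaction. At an unadjusted p under 0.05 limma had 6 hypermutation genes, 3 promoter and enhancer factors, 2 V(D)J recombination genes, 2 T cell and 1 plasma cell markers for genotype, and 2 promoter and enhancer factors, 1 constant region gene and 1 pro-B and pre-B marker for the interaction, where 9.98% and 6.94% of all genes reached this limit. Constant regions and V genes thus had medians of opposite sign for onset, 1.44 against -0.90, neither with a call.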

How the data were processed

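The libraries and their processing were as follows. The submitters' processing notes list TopHat2 2.1.1, FastQC 0.11.5, Cuffdiff, Cuffnorm and Cufflinks 2.2.1, and the builds mm10 and GRCm38. The sources used here do not say which of them produced the table, nor its annotation, strand setting or treatment of reads that match several genes. Per the labels' protocols, amplification took 10 or 8 cycles by kit version, and as no label gives the version by library, no within-batch values could be had. The authors deposited a normalised signal, gene counts over 1 size factor for each library. Whole reads were recovered from 100% of values within 0.01 reads, and shares use these recovered counts. The authors also deposited log2 fold changes and adjusted p-values of 5 comparisons, signed HET minus WT and late minus early.

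Values were tested as log2(value + 1) with limma 3.58.1 (R 4.3.3) on the 19927 genes that reached a value of 1 in 4 or more libraries, with the 4 groups in 1 fit, with Benjamini-Hochberg adjustment over all genes; the fold scale understates changes of low genes. On the recovered counts edgeR 4.0.16 called 539 genes for onset and DESeq2 1.42.0 called 1855. Fits were tried on simulated counts with the same spread for every gene and onset shifts shared by all late tumours. This does not check them for genes that are high in single tumours, as many V genes were. Leading shares used loci with at least 100 reads. Alternatives were pseudocount 0.1, no filter, other tools, quantile scaling, each library left out, other read minimums and limits, and family or per-length shares. Members and lists were chosen with earlier results of these data known. Named genes were the leading V genes, second genes with 20% or more, members called or of smallest p, those nearest the threshold and those detected most widely. Second genes under 20%, Igkv2-107 and Igkv2-109 were named after their values were seen. No other sample columns were present. P-values measure the spread between tumours.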

Additional observations from a re-analysis of the deposited data

Results flagged for a closer look

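Within groups, a single tumour lay far from the others in 23 of 61 sets of 4 to 6 tumours checked for a gap. Chance alone would flag about 1 in 20 groups of unselected values, but the count cannot be read against that rate, since members were chosen for a high value in at least 1 tumour and the values are not on a log scale. HET late 4 stood apart in its summed normalised count of Ighv (157077, others at most 1474), Igkv (293296, others at most 490) and Iglv (1125, others at most 124), in Igkv reads per 100 constant reads (42.5, others at most 8.49) and in Iglv2 (10.5). HET early 3 stood apart in summed Igkv (3141, others at most 540), Igkv19-93 (457), Igkv4-91 (51.4), Igkv6-23 (35.9), Igkv4-50 (27.8) and Igkv3-7 (5.71). In WT late tumours, WT late 2 did so in Igkv4-91 (123), Ighv14-2 (74.4) and Ighv1-52 (26.5), WT late 3 in Ighv reads per 100 constant reads (7.03, others at most 1.30) and Igkv4-57-1 (4.82), and WT late 5 in Igkv3-7 (121). The remaining cases were WT early 6 in Ighv14-2 (61.5) and Iglv2 (6.43), WT early 5 in Igkv reads per 100 constant reads (72.7, others at most 32.9), WT early 4 in Igkv3-7 (23.2), HET early 1 in Iglv reads per 100 constant reads (48.5, others at most 22.8), and HET late 3 in Ighv1-52, with a value of 0.787 from 1 read against 0 in the others.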

How the results depend on the processing

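The number of tumours dominated by 1 gene depended on its definition. For Ighv it was 5 of 13 as reported, 10 by V family, 2 with a limit of 80%, 2 of 7 with at least 1000 reads, and 4 to 5 without any single tumour. For Igkv it was 6 of 18, 1 at 80%, 3 of 9 with at least 1000 reads and 5 to 6. By V family, WT late 2 (59.1%) and WT early 1 (57.1%) passed 50% at Igkv in addition. Median leading shares lay at 38.0% to 48.2% for Ighv and 33.6% to 35.2% for Igkv without any single tumour. Shares over members only or per transcript length (chosen after seeing the data) gave 6 Ighv and 6 Igkv tumours. A member threshold of 50 left 75 of 122 members. Without each library in turn, limma called 0 to 490 genes and 0 to 1 members for onset, the 1 being Igkv19-93 without HET early 2, and 0 genes and 0 members for genotype and interaction. Onset calls were lost (0 genes) without HET late 2, HET early 1 or 4, WT late 1 or 4, or WT early 1, 3, 4, 5 or 6, numbered 18 without HET late 4, 13 without WT late 2 and 15 without WT early 2, and rose to 341, 490, 168 and 284 without HET late 1, HET late 3, HET early 2 and WT late 3. edgeR called 539 genes and 2 members, DESeq2 1855 and 12, and limma 0 genes without the 3 libraries led by another gene. Without the 4 libraries low in Pou2af1, limma called 0 genes for onset and 1 gene, not a member, for the interaction. DESeq2 called 18 genes for genotype and 96 for the interaction. The cause was not tested. At 14 to 49 reads, a leading Ighv gene could not be ranked in 6 tumours. No paired analysis was possible because the replicate numbers come from the order of the samples.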
